A study of Homo sapiens with 6 samples.

Results

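The FOXO transcription factors and genes of insulin signalling were examined in ARPE-19 cells given SRPIN803. The 10 genes are FOXO1, FOXO3, FOXO4, INSR, IRS1, IRS2, SESN3, RICTOR, BCL6 and FBXO32. They are 10 of 19775 genes measured here, and 39 of 54613 probe sets name exactly 1 of them. The genes were selected on textbook roles and with the SRPIN803 minus DMSO differences of these same arrays already known, so their differences are given as a description with no test. ARPE-19 is a human cell line, established from pigmented epithelial cells of the retina, and SRPIN803 is a small-molecule kinase inhibitor. Both groups grew in DMEM/Ham's F-12 with fetal bovine serum, so both had serum growth factors. The treated group, 3 arrays, received SRPIN803 for 4 h at 10 µM. The control group, 3 arrays, received 0.1% DMSO, the solvent, for the same time. No DMSO percentage is recorded for the treated group. The labels name replicates 1 to 3 in each group but do not say whether they were separate cultures, so p-values measure no more than the spread of these 3 samples per group, and that spread can be technical.

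In insulin signalling, the bound insulin receptor phosphorylates adaptor proteins (IRS1, IRS2), which recruit PI3-kinase and so activate the kinase AKT. AKT is fully activated by the mTORC2 complex, of which RICTOR is a defining subunit, and it phosphorylates FOXO factors, which then leave the nucleus and lose access to their target genes. FOXO factors that stay in the nucleus raise transcription of genes including INSR, IRS2, SESN3, BCL6, FBXO32 and RICTOR in various tissues, which is the textbook feedback to insulin sensitivity. Expression arrays see the transcripts of these genes, not the phosphorylation or location of the proteins.

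Values are on the log2 scale of the deposited RMA-processed data, so a difference of 1 is a 2-fold change, and each gene is read from its brightest probe set unless another is named. The median level of all probe sets was 5.26, and 9 of the 10 genes lay above it, FOXO4 being the exception. Arrays of the same group correlated between 0.9957 and 0.9977 over all probe sets, and arrays of different groups between 0.9940 and 0.9961. Of 12 markers of retinal pigment epithelium, 8 were at or above the median level, while RPE65, LRAT, TYRP1 and MERTK were below it. One marker of that list, MITF, was called higher (0.35 ± 0.07 on the log2 scale, limma's adjusted p = 0.0312), and no marker of the epithelial, stromal, endothelial, leukocyte, photoreceptor or muscle lists was called. The log2 of the summed unlogged values of the pigment epithelium markers was 11.4 to 11.5 in DMSO and 11.7 in all SRPIN803 arrays. That of the photoreceptor markers also did not overlap, at 7.37 to 7.45 in DMSO and 7.54 to 7.67 in SRPIN803. The brightest markers weigh most in such a sum, for pigment epithelium OTX2 and MITF (DMSO means 10.4 and 10.1). Single markers of that list did not share 1 direction, with differences from -0.18 for RPE65 to 0.35 for MITF. The part of such markers in the results was not tested. In bulk RNA, fewer cells of a type and less RNA per cell cannot be told apart.

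The promoters of these genes were searched for GTAAACA and CAAAACA, the cores of the FOXO binding site and of the insulin response element, on both strands. The windows came from RefSeq (GRCh38.p14) and held 300 bases each, 250 before and 50 after an annotated start site. Of 35116 windows of this kind, 3.42% held GTAAACA, 4.92% held CAAAACA and 8.07% held either. Of the 10 genes, 9 had 13 windows in the table (4 for FOXO3, 2 for BCL6), and 2 of these windows held a core, with no overlap between cores. IRS2 held CAAAACA on the strand opposite to the gene, first base 40 before the start, within the stretch chr13:109786607-109786633 on the minus strand. FOXO4 held GTAAACA on the gene's strand, first base 24 after the start, within the stretch chrX:71095864-71095890 on the plus strand. The stretches around both matches are shown 5′ to 3′ along the gene with the match in capitals, together with the 250 bases before the start of the genes with the largest differences between the groups: RICTOR (chr5:39074400-39074649, minus strand) and BCL6 (chr3:187745469-187745718, minus strand, the outer of its 2 starts), whose windows held no match. The search was also run on TXNIP and PDK4, which are outside the 10 genes. TXNIP held GTAAACA on the gene's strand, first base 124 before a start, and PDK4 held neither core. A match is a description of the letters and not a binding site.
IRS2: agtcacatgtTGTTTTGctcttcttag
FOXO4: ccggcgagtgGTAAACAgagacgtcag
RICTOR: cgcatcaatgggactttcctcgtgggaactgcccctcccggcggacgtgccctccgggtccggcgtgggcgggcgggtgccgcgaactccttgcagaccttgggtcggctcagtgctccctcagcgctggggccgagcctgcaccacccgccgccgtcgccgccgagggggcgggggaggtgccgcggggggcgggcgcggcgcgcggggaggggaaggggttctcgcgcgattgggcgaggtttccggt
BCL6: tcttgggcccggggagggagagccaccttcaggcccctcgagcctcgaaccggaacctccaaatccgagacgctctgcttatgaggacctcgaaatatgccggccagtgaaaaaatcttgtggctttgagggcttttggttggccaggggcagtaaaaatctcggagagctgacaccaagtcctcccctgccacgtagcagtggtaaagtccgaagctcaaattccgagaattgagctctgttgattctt

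INSR encodes the insulin receptor. Its level was 7.94, 7.89 and 7.999 in DMSO replicates 1 to 3 and 8.23, 8.04 and 8.23 in SRPIN803 replicates 1 to 3. Every SRPIN803 array lay above every DMSO array, replicate 2 being the lowest of each group. The difference was 0.22 ± 0.07 (SE, n = 3 per group; 95% interval 0.05 to 0.39) on the log2 scale, 1.17-fold. All 5 of its probe sets had a higher SRPIN803 mean, by 0.08 to 0.42, and 3 of them had groups that did not overlap.

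IRS1 and IRS2 encode the main adaptors of the receptor. IRS1 read 9.74, 9.82 and 9.94 in DMSO and 10.10, 10.22 and 10.25 in SRPIN803. The groups did not overlap, and the difference was 0.35 ± 0.08 (SE, n = 3 per group; 95% interval 0.18 to 0.53), 1.28-fold. A further probe set of IRS1 gave nearly the same difference, 0.36, and the dimmest 0.08. The IRS2 arrays lay closer together. IRS2 read 12.55, 12.56 and 12.61 in DMSO and 12.62, 12.59 and 12.70 in SRPIN803. The IRS2 groups overlapped, and the difference was 0.06 ± 0.06 (SE, n = 3 per group; 95% interval -0.07 to 0.20). Its other probe set differed by 0.02, so both readings of IRS2 lay near 0. Among the chosen genes, the IRS2 promoter was 1 of the 2 that held an insulin response element or FOXO core.

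**Figure D1:**
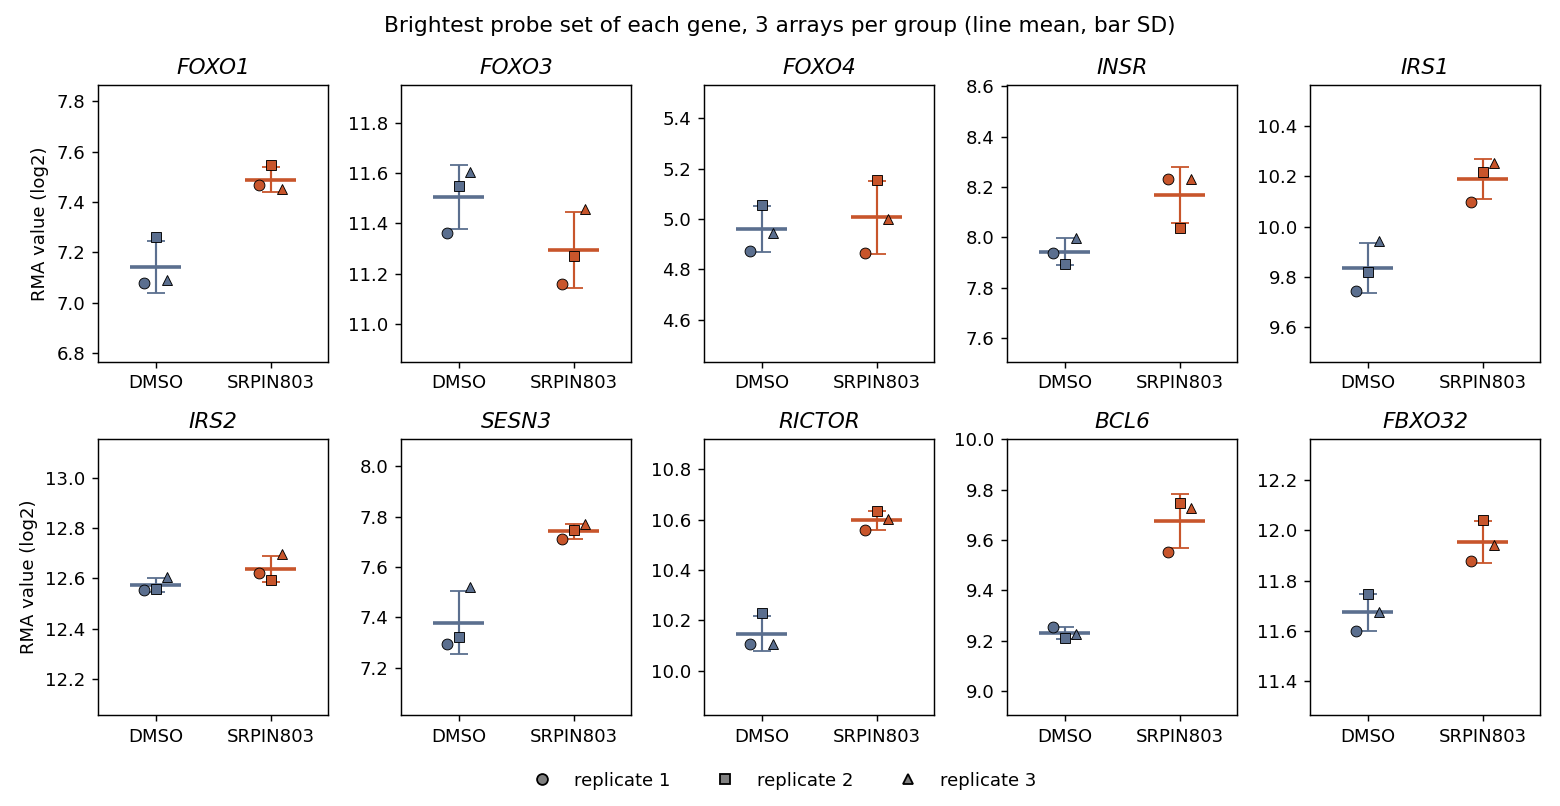
Log2 level of each of the 10 genes on each array, 1 panel per gene, with DMSO and SRPIN803 arrays as points (3 per group), the group mean as a line and the SD as a bar. The SRPIN803 arrays of 7 genes lie wholly above the DMSO arrays, and the groups of FOXO3, FOXO4 and IRS2 overlap.

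RICTOR encodes the subunit that defines mTORC2, the kinase complex that completes AKT activation. Its level was 10.11, 10.23 and 10.11 in DMSO and 10.56, 10.63 and 10.60 in SRPIN803. Every SRPIN803 array lay above every DMSO array, and the arrays of each group lay close together. The difference was 0.45 ± 0.06 (SE, n = 3 per group; 95% interval 0.31 to 0.59), 1.37-fold. All 4 of its probe sets were higher in SRPIN803, by 0.13 to 0.45, and the groups of 3 of them did not overlap.

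The means of the FOXO factors themselves did not share 1 direction. FOXO1 read 7.08, 7.26 and 7.09 in DMSO and 7.47, 7.55 and 7.45 in SRPIN803. The FOXO1 groups did not overlap, and the difference was 0.35 ± 0.07 (SE, n = 3 per group; 95% interval 0.18 to 0.51), 1.27-fold. Its other 2 probe sets were higher by 0.10 and 0.09, with overlapping groups. FOXO3 read 11.36, 11.55 and 11.60 in DMSO and 11.16, 11.27 and 11.46 in SRPIN803. That is the opposite direction, with overlapping groups: the difference was -0.21 ± 0.10 (SE, n = 3 per group; 95% interval -0.44 to 0.02). The direction was shared by every probe set naming FOXO3. All 4 were lower in SRPIN803, by -0.45 to -0.20, and the groups of 3 did not overlap. A further 3 probe sets name FOXO3 together with its near-identical copy FOXO3B and so were not counted. They differed by -0.47, -0.41 and -0.13, the last from a dim one. The signal of a shared probe set cannot be assigned to either copy. Leaving out SRPIN803 replicate 2, the lowest array of the probe set with the difference of -0.45, gave -0.28 there.

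FOXO4 was the dimmest of the 10, below the median of all probe sets. It read 4.87, 5.06 and 4.95 in DMSO and 4.86, 5.15 and 5.00 in SRPIN803. The groups overlapped throughout, and the difference was 0.05 ± 0.09 (SE, n = 3 per group; 95% interval -0.16 to 0.25). Without SRPIN803 replicate 2 it was -0.03. FOXO6, a family member outside the chosen set, differed by 0.09 ± 0.08 (limma's adjusted p = 0.610).

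**Figure D2:**
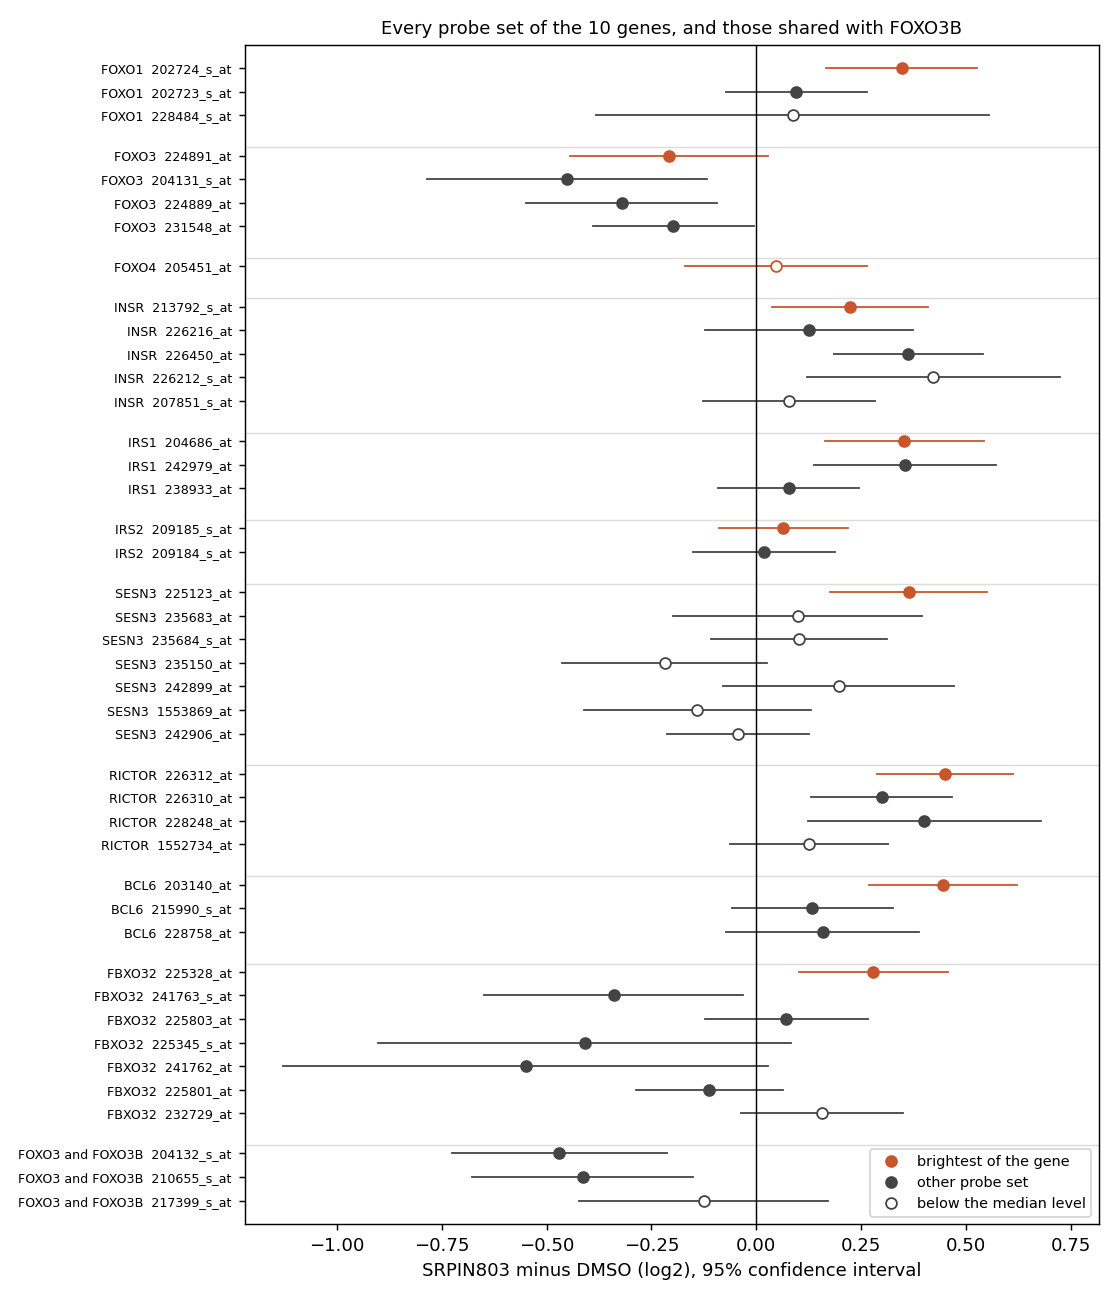
SRPIN803 minus DMSO difference (log2) of every probe set of the 10 genes and of the 3 shared by FOXO3 and FOXO3B, 1 row each, with its 95% interval. Orange marks the brightest of a gene, and open points lie below the median level. Points of RICTOR, INSR, IRS1 and BCL6 lie above 0, those of FOXO3 below 0, and those of FBXO32 on both sides.

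SESN3 encodes sestrin 3, a stress protein that restrains mTORC1 and is a target of FOXO factors. It read 7.29, 7.32 and 7.52 in DMSO and 7.71, 7.75 and 7.77 in SRPIN803. The SRPIN803 arrays lay close together and all above DMSO, where replicate 3 was the highest. The difference was 0.36 ± 0.07 (SE, n = 3 per group; 95% interval 0.19 to 0.54), 1.29-fold. This rests on 1 probe set: the other 6 were below the median level and differed by -0.22 to 0.20, with overlapping groups.

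BCL6 encodes a transcriptional repressor with roles in lymphocytes and metabolism. It read 9.26, 9.21 and 9.23 in DMSO and 9.55, 9.75 and 9.73 in SRPIN803. The DMSO arrays were tightly grouped and every SRPIN803 array was higher. The difference was 0.45 ± 0.07 (SE, n = 3 per group; 95% interval 0.28 to 0.61), 1.36-fold. Its other 2 probe sets were higher by 0.13 and 0.16, with overlapping groups.

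FBXO32 encodes atrogin-1, the substrate adaptor of an SCF ubiquitin ligase that is known for its role in muscle wasting. Its brightest probe set read 11.60, 11.75 and 11.67 in DMSO and 11.88, 12.04 and 11.94 in SRPIN803. There the groups did not overlap, and the difference was 0.28 ± 0.07 (SE, n = 3 per group; 95% interval 0.12 to 0.44), 1.21-fold. The 7 probe sets of FBXO32 disagreed, however. The next brightest, with 11.30, 11.55 and 11.52 in DMSO and 10.83, 11.20 and 11.32 in SRPIN803, differed by -0.34. Others at or above the median level differed by 0.07, -0.41, -0.55 and -0.11, and the dim one by 0.16, all with overlapping groups. The largest of these turned on 1 array, SRPIN803 replicate 2, which read 7.37 against 8.22 and 8.46 in the other SRPIN803 arrays and 8.43, 8.70 and 8.57 in DMSO. Without that array its difference was -0.23, and the difference of -0.41 was -0.14. The mean of all FBXO32 probe sets differed by -0.13, so the direction depends on the probe set read.

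**Figure D3:**
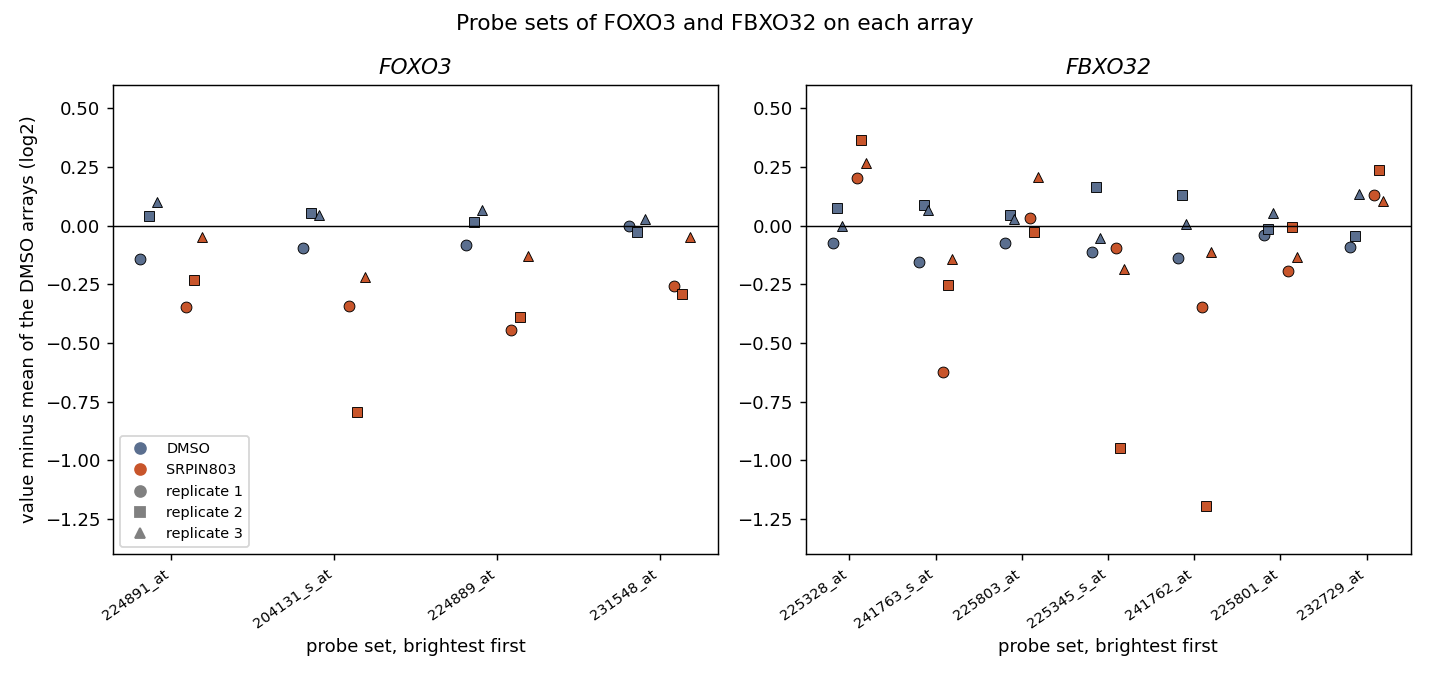
Log2 value of each FOXO3 and FBXO32 probe set on each array minus its mean over the DMSO arrays, with colour for the group and shape for the replicate, 3 arrays per group. Every SRPIN803 point of FOXO3 lies below 0, whereas for FBXO32 the brightest probe set lies above 0 and others below, with SRPIN803 replicate 2 far lowest in 2 of them.

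Over the whole data set, 5.84% of genes were called at an adjusted p under 0.05 (limma, Benjamini-Hochberg over all genes), 3.46% higher and 2.37% lower in SRPIN803. Of the 10 genes, 5 met that threshold, all higher, which is a description of genes chosen on this contrast and not a test of them: FOXO1, IRS1, SESN3, RICTOR and BCL6. The groups of 7 did not overlap with SRPIN803 higher, where 15.2% of all genes did so and 25.6% in either direction. At the level of probe sets, 2.22% of all were called, and 2 of the 39 were, those of RICTOR and BCL6. The shares of all genes stand beside the counts as background, and nothing is read from them. The median difference over the 10 genes was 0.31 (range -0.21 to 0.45), against 0.02 over all genes. The number past the threshold depends on single arrays: 2 without DMSO replicate 1, 2 without DMSO replicate 2, 1 without DMSO replicate 3 and 2 without any 1 of the SRPIN803 replicates. RICTOR did not pass it without DMSO replicate 3, and BCL6 without DMSO replicate 2 or 3. FOXO1 did not pass it without any array but DMSO replicate 2, SESN3 without any but DMSO replicate 3, and IRS1 without any 1 array. The differences of these 5 lay between 0.31 and 0.51 whichever 1 array was left out. With the mean of all probe sets they were smaller, 0.18 for FOXO1, 0.26 for IRS1, 0.05 for SESN3, 0.32 for RICTOR and 0.25 for BCL6, and RICTOR alone stayed past the threshold.

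Other genes of the pathway were read from 9 lists, chosen with earlier results of these data known. Their counts and adjusted p-values are therefore a description of the listed genes. In all, 219 genes were measured, none of the 10 among them. Of these, 17 rose and 11 fell, 12.8% called, and the median difference was 0.01. Over all genes, 5.84% were called. In the fit of genes at or above the median level alone, 15.1% of genes and 38 pathway genes were called. These shares are the background for each list below, and nothing is read from them. The count of 28 was 9 without DMSO replicate 1, 10 without DMSO replicate 2 and 8 without DMSO replicate 3. It was 18 without SRPIN803 replicate 1, 19 without SRPIN803 replicate 2 and 12 without SRPIN803 replicate 3. PIK3R3, TRIB3, DDIT4L, KICS2, XPO1, CCNG2, TXNIP and PDK4 were called whichever 1 array was left out, and each of the other 20 lost its call in at least 1 such fit. With the mean of all probe sets, INPP4B (0.12), PHLPP2 (-0.31), MAPK8 (0.28), STK3 (0.13), PPARGC1A (0.34), TBL1XR1 (0.16), STAT5B (0.04) and FOXK2 (-0.15) were no longer called (adjusted p from 0.0505 for PPARGC1A to 0.811 for STAT5B). That setting called 25 pathway genes in all, so genes outside the 28 gained a call.

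Around the receptor, 1 of 23 genes rose and the median difference was 0.00. GRB14, an inhibitor of the insulin receptor, read 5.60, 5.35 and 5.54 in DMSO and 6.03, 6.29 and 5.95 in SRPIN803. It was 0.60 ± 0.11 higher (SE, n = 3 per group, adjusted p = 0.0224), and the call was lost without DMSO replicate 2 or 3 or SRPIN803 replicate 1 (adjusted p up to 0.0818). IGF1R, the related growth factor receptor, differed by 0.17 ± 0.09 (adjusted p = 0.342).

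In the layer of PI3-kinase and AKT, 1 of 25 genes rose and 4 fell, with a median of -0.01. PIK3R3, a regulatory subunit of PI3-kinase, read 7.36, 7.37 and 7.30 in DMSO and 6.33, 6.48 and 6.34 in SRPIN803. It fell by 0.96 ± 0.06 on the log2 scale (SE, n = 3 per group, adjusted p = 0.000617). TRIB3, a pseudokinase that binds AKT, read 8.72, 8.81 and 8.78 in DMSO and 8.13, 8.24 and 8.25 in SRPIN803, a fall of -0.56 ± 0.06 (adjusted p = 0.00425). The probe sets of PIK3R3 ranged from -0.96 to -0.21 and those of TRIB3 from -0.56 to -0.16, and their means fell by 0.58 and 0.36. The groups of both genes were far apart, and PIK3R3 showed the largest fall in the lists. PHLPP2, a phosphatase that removes AKT's activating phosphate, fell by 0.37 (adjusted p = 0.0194), and PPP2R5B, a subunit of protein phosphatase 2A, by 0.42 (adjusted p = 0.0411). INPP4B, a phosphoinositide phosphatase, rose by 0.42 (adjusted p = 0.0116), although its probe sets ranged from -0.36 to 0.42. The 2 INPP4B probe sets above the median level gave 0.36 and 0.42, so the -0.36 came from a dim one. These last 3 calls were lost when single arrays were left out: PHLPP2 and PPP2R5B without any array but SRPIN803 replicate 2 (adjusted p up to 0.074 and 0.152), and INPP4B without DMSO replicate 1 or 3 (up to 0.0601). The kinases AKT1 and AKT2 differed by 0.01 ± 0.07 and 0.07 ± 0.07 (adjusted p = 0.979 and 0.670).

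Among the mTOR complexes and the TSC genes, 1 of 23 rose and 1 fell. DDIT4L, an inhibitor of mTORC1, read 11.09, 11.27 and 11.13 in DMSO and 10.44, 10.51 and 10.63 in SRPIN803. It fell by 0.64 ± 0.08 (SE, n = 3 per group, adjusted p = 0.00534). TSC1, which restrains mTORC1 with TSC2, rose by 0.38 ± 0.06 (adjusted p = 0.0154), a call lost when DMSO replicate 1, DMSO replicate 3 or SRPIN803 replicate 3 was left out (up to 0.0672). Of the 19 partners of the sestrins, 2 rose. KICS2, a subunit of the KICSTOR complex, read 6.66, 6.80 and 6.87 in DMSO and 7.50, 7.48 and 7.30 in SRPIN803 (0.65 ± 0.08, adjusted p = 0.00645). Its probe sets ranged from 0.02 to 0.65. SESN1, the sestrin most like SESN3 in its role as a FOXO target, rose by 0.35 ± 0.06 (adjusted p = 0.0239, up to 0.105 without any array but SRPIN803 replicate 2). SESN2 differed by 0.07 ± 0.07 (adjusted p = 0.686). Thus SESN1 and SESN3 were both higher, and the SESN2 difference did not pass the test.

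Of 34 regulators and partners of FOXO factors, 3 rose and 1 fell. XPO1, the exportin that carries FOXO proteins and many others out of the nucleus, read 11.92, 11.82 and 11.85 in DMSO and 12.80, 12.73 and 12.71 in SRPIN803. It rose by 0.88 ± 0.06 (SE, n = 3 per group, adjusted p = 0.000617), 1.85-fold. Its 2 probe sets above the median level gave 0.88 and 1.23, and the dim one -0.09. MAPK8 and STK3, kinases that phosphorylate FOXO factors, each rose by 0.32 (adjusted p = 0.0310 and 0.0268). SFN, a 14-3-3 protein, fell by 0.30 (adjusted p = 0.0491). The calls of MAPK8, STK3 and SFN were each lost whichever 1 array was left out (adjusted p up to 0.130, 0.0951 and 0.148).

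Of 49 other genes known as FOXO targets, 8 rose, and the median difference was 0.07. That is 16.3% called, beside 5.84% of all genes. The list was chosen with earlier results known, so the count is no test of FOXO targets. These 49 genes held the largest rises in the lists. PDK4, the kinase that shuts down pyruvate dehydrogenase in fasting, read 4.65, 4.13 and 4.24 in DMSO and 7.59, 7.28 and 7.57 in SRPIN803. It rose by 3.14 ± 0.15 (SE, n = 3 per group, adjusted p = 0.000134) from a DMSO level below the median of all probe sets, so no fold is given. TXNIP, an inhibitor of thioredoxin and of glucose uptake, read 6.67, 6.90 and 6.89 in DMSO and 9.67, 9.69 and 9.62 in SRPIN803. It rose by 2.84 ± 0.08 (adjusted p = 1.53e-05), 7.16-fold. CCNG2, a cyclin linked to cell cycle arrest, read 9.72, 9.74 and 9.71 in DMSO and 10.79, 10.78 and 10.95 in SRPIN803, a rise of 1.12 ± 0.07 (adjusted p = 0.000382). The groups of all 3 were far apart. Each of their probe sets was higher in SRPIN803, but by different amounts: 0.23 to 3.14 for PDK4, 1.65 to 2.84 for TXNIP and 0.14 to 1.45 for CCNG2. Of the 3 PDK4 probe sets, only 1 had a mean over all arrays above the median level, that with 3.14. It passed only through the SRPIN803 arrays, with a mean of 7.48 against 4.34 in DMSO. Its brightness is therefore no ground to prefer it to the others. The 0.14 of CCNG2 came from a dim probe set, and its others gave 1.04 to 1.45. The mean of all probe sets rose by 1.201 for PDK4, 2.10 for TXNIP and 0.96 for CCNG2. PPARGC1A, a coactivator of fasting metabolism, rose by 0.64 ± 0.12 (adjusted p = 0.0260) from a level below the median, and YPEL3 by 0.40 ± 0.07 (adjusted p = 0.0180). Both calls were lost when single arrays were left out (adjusted p up to 0.0923 and 0.0751). PPARGC1A lost it without any but SRPIN803 replicate 2, and YPEL3 without any DMSO replicate or SRPIN803 replicate 3. GADD45B (0.33) and MXI1 (0.26), named after their values were seen, were the remaining called genes beside SESN1, and the other 41 genes did not pass the test.

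**Figure D4:**
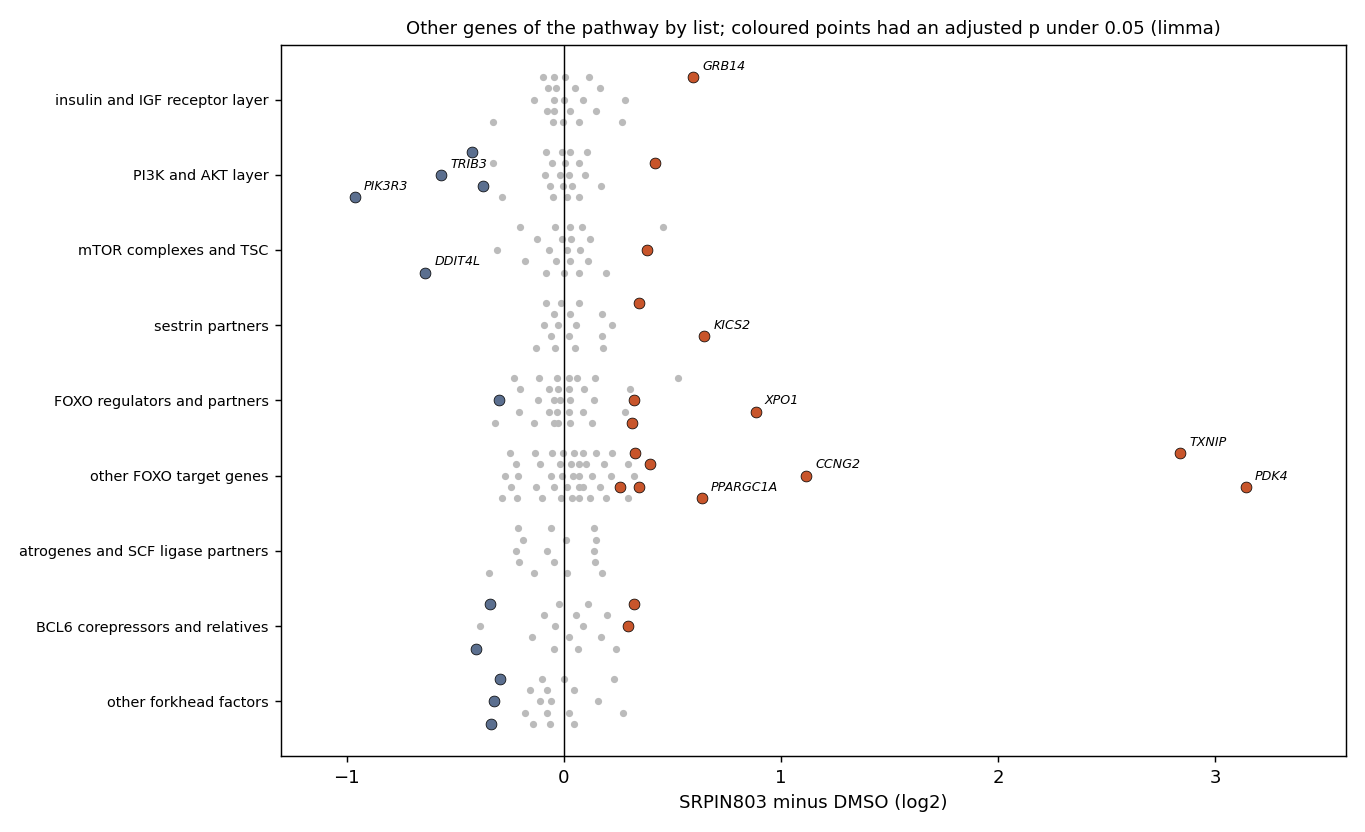
SRPIN803 minus DMSO difference (log2) of each measured gene in the 9 lists, 1 row per list, with called genes coloured and those that differ most named. Most points lie near 0, and those of PDK4 and TXNIP lie farthest to the right, at 3.14 and 2.84.

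Beside FBXO32, 16 other atrophy genes and ligase partners were measured. None was called by limma over all genes, 4 had an unadjusted p under 0.05, and 1 was called with an intensity trend and robust prior. FBXO31, a related F-box protein, differed by -0.21 ± 0.05 (adjusted p = 0.0668) and MSTN, myostatin, by 0.18 ± 0.06 at a very low level (adjusted p = 0.164). Among 18 corepressors and relatives of BCL6, 2 rose and 2 fell. BCOR, a corepressor that binds BCL6, read 7.55, 7.50 and 7.55 in DMSO and 7.19, 7.16 and 7.04 in SRPIN803, a fall of -0.40 ± 0.06 (SE, n = 3 per group, adjusted p = 0.0139). KDM2B, a partner of BCOR, fell by 0.34 (adjusted p = 0.0255). TBL1XR1 rose by 0.32 (adjusted p = 0.0268) and STAT5B by 0.29 (adjusted p = 0.0305). Each had probe sets that reached below 0, to -0.06 in a dim one of TBL1XR1 and -0.08 in one of STAT5B above the median level. BCOR lost its call without any DMSO replicate (adjusted p up to 0.0694). KDM2B lost it without any array but SRPIN803 replicate 1 (up to 0.0974), TBL1XR1 without any but SRPIN803 replicate 2 (up to 0.113), and STAT5B whichever array was left out (up to 0.105).

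Of 19 other forkhead factors, 3 fell, with a median of -0.08. FOXD1 read 11.23, 11.22 and 11.21 in DMSO and 10.96, 10.95 and 10.75 in SRPIN803, a fall of -0.34 ± 0.07 (SE, n = 3 per group, adjusted p = 0.0392). FOXK2, a forkhead factor that responds to insulin, fell by 0.32 (adjusted p = 0.0260), though 1 of its probe sets read 0.05. FOXF2 fell by 0.29 (adjusted p = 0.0437). FOXK1, the close relative of FOXK2, differed by 0.05 ± 0.06 (adjusted p = 0.768). The calls of FOXD1 and FOXF2 were lost whichever array was left out (adjusted p up to 0.130 and 0.165), and that of FOXK2 without any but SRPIN803 replicate 1 (up to 0.101).

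Genes whose levels ran most like those of the 3 genes with the largest differences were found over the 6 arrays, among 12619 genes at or above the median level. For RICTOR these were ZNF101 (Pearson r = 0.997), KRCC1 and FRG1HP. For BCL6 they were LOC101929398, LINC00899 and FAM114A2 (r = 0.999, 0.999 and 0.996), and for SESN3 TMEM129, APOOL and CLDN23 (r = 0.994, 0.993 and 0.988). The arrays share the group difference, with 3 arrays on either side of it, and 433 genes exceeded r = 0.95 with RICTOR, 352 with BCL6 and 138 with SESN3.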

How the data were processed

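Expression was measured in 6 samples of ARPE-19 cells, 3 per group, on 3' arrays. The values deposited by the authors are log2 intensities, 1 per probe set, and per the submitters' processing notes RMA produced them, with software and version not given in the sources used here. They were used as they stand. The number of arrays limits the precision. Probe sets were named from the platform annotation (41091 name 1 gene, 41037 of them found in the reference gene table, 1801 several, 11721 unnamed here), and each gene was read from the brightest one naming it alone. SRPIN803 was compared with DMSO in limma 3.58.1 (R 4.3.3; lmFit, then eBayes; 4 residual degrees of freedom, two-sided, Benjamini-Hochberg over all genes or over all probe sets, 62 controls left out). The threshold for a call was an adjusted p of 0.05, and intervals are 95%. With 3 arrays a group the smallest p of an exact permutation is 0.1, so none was run. The fit was tested on simulated data. The members and lists were chosen with earlier results of these data known. Named genes were the members, up to 5 called genes per list with the largest change (or the 2 of smallest p), and a fixed set that included AKT1, AKT2, IGF1R, FOXO6, FOXK1, FOXK2, SESN1, SESN2, TXNIP, PDK4 and TRIB3; some items are not reported here. Promoters came from RefSeq (GRCh38.p14). Alternatives were a replicate block, each array left out, a filter on dim genes, the mean of all probe sets, renewed quantile normalization or centring, an intensity trend with a robust prior, and array weights.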

Additional observations from a re-analysis of the deposited data

How the results depend on the processing

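No called value of a named gene changed sign under the alternatives run; of the uncalled, FBXO32 was -0.13 with the mean of all probe sets and FOXO4 -0.03 without SRPIN803 replicate 2, and AKT1 and AKT2, both near 0, changed sign too. Against 1154 genes called, 689 were called with the replicate block, 1905 among genes at or above the median level, 2036 with an intensity trend and robust prior, and 324 to 687 when 1 array was left out (324 without DMSO replicate 3, 687 without SRPIN803 replicate 1). Against 1214 probe sets, the numbers were 304, 2666, 2997 and 215 to 716. Against 28 pathway genes called, the block gave 14, the filter on dim genes 38 and the intensity trend with a robust prior 41. The mean of all probe sets gave 25 and leaving out 1 array 8 to 19. Against 5 members called, the block gave 4, without SESN3, and the mean of all probe sets 1. The filter and the trend with a robust prior each gave 6, adding FBXO32, and leaving out 1 array gave 1 to 2. The cause of these changes was not tested, and some settings hold fewer arrays or genes. Deviations from the group means correlated by 0.18, -0.06 and 0.11 between samples with the same replicate number. No reference value was computed for these correlations, so whether the numbers pair the samples was not tested. Of the members' differences under all alternatives, 123 moved by less than the spread between replicates and 6 by more, all 6 with the mean of all probe sets. For the named pathway genes, 329 values kept their side of the threshold, 109 lost it and 2 gained it. Among the members, 1 promoter window held a match with GTAAACA alone and 1 with CAAAACA alone, against 2 with both. Dim probe sets, such as those of FOXO4 and 6 of SESN3, limit what these arrays can show.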
